A study of Mus musculus with 4 samples.

Results

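The Cyp2c genes of the mouse encode a family of cytochrome P450 enzymes of the liver, and 10 of them were followed here: Cyp2c29, Cyp2c37, Cyp2c38, Cyp2c39, Cyp2c40, Cyp2c50, Cyp2c54, Cyp2c55, Cyp2c69 and Cyp2c70. They were chosen by symbol from the 21959 gene IDs of the deposited table, which also holds 5 other Cyp2c genes (Cyp2c23, Cyp2c65, Cyp2c66, Cyp2c67 and Cyp2c68). The 4 RNA-seq libraries came from livers of WT (wild-type) mice, all in acute-on-chronic liver failure, in which acute injury strikes a chronically diseased liver. The mice of 2 livers were given saline and those of the other 2 were given baicalein, a flavone of the root of Scutellaria baicalensis. All 4 livers therefore share the liver failure, and no untreated or healthy liver was analysed here. The labels give no dose, time, age, sex or way of inducing the disease, and they do not say that each liver came from its own animal, so p-values measure only how these samples spread, and that spread may be technical.

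Cytochromes P450 of this family sit in the membrane of the endoplasmic reticulum, take electrons from the reductase Por and insert oxygen into their substrates. Mouse Cyp2c enzymes oxidize drugs and steroids, convert arachidonic and linoleic acid into epoxides and hydroxy acids, and in the case of Cyp2c70 make the muricholic acids that set mouse bile apart from human bile. Their genes arose by repeated duplication, are transcribed mainly in hepatocytes under factors such as HNF4A and the xenobiotic receptor CAR, and several of them are expressed unequally in male and female liver.

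Of the 15 Cyp2c genes in the deposited table, 14, among them all 10 members, lay next to each other on chromosome 19 between 38995463 and 40175777, a span of 1.18 Mb with no other gene of the table inside. Positions are printed as deposited. No source used here states their build, and none of the 15 genes had the same start and end in the GENCODE M21 annotation of mm10. The promoter sequences below carry GRCm38.p6 positions, which therefore cannot be set against the deposited gene spans. The coding sequences of GENCODE M21 sorted the members into groups of close copies. Cyp2c40 and Cyp2c69 had 97.9% identical bases, and Cyp2c67 and Cyp2c68 were as close to them (96.5 to 98.1% over the pairs of these 4 genes). Cyp2c37, Cyp2c50 and Cyp2c54 shared 95.1 to 96.1% with each other, and Cyp2c38 and Cyp2c39 shared 94.2%. Cyp2c29 was nearest to Cyp2c39 at 89.5%. Cyp2c55 and Cyp2c70 had no close copy, their nearest relatives being at 77.7% and 72.1%.

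**Figure D1:**
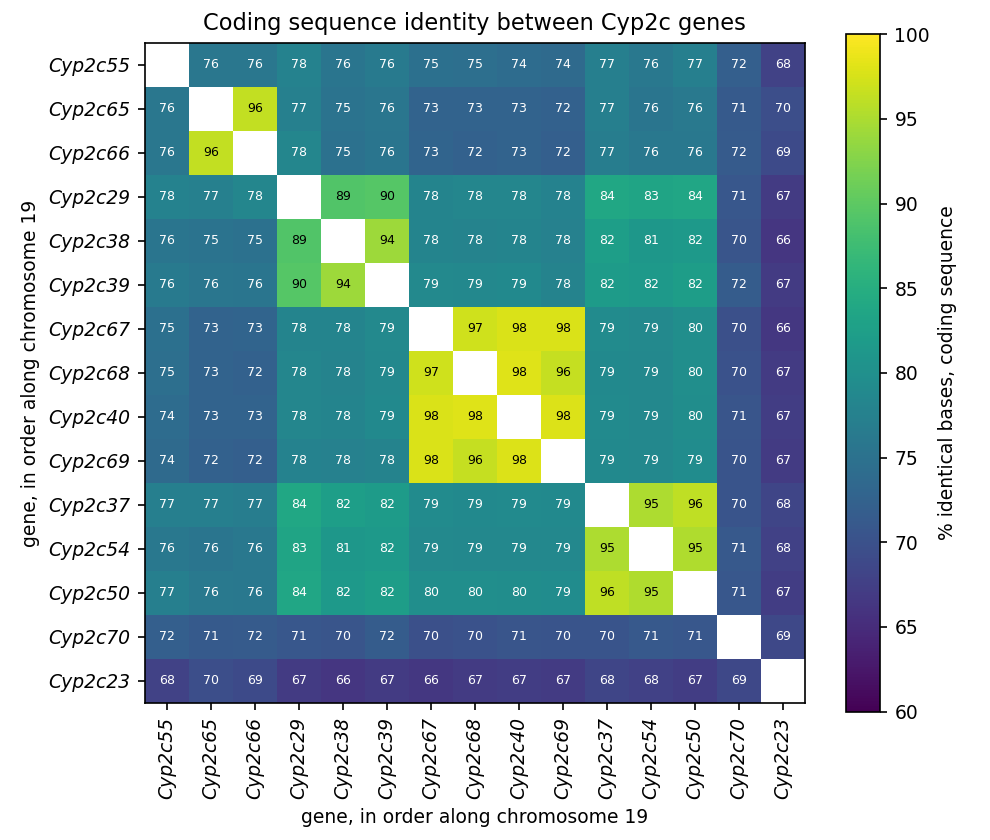
Percent of identical bases between the aligned coding sequences of each pair of the 15 Cyp2c genes, genes ordered along chromosome 19 on both axes. The block of Cyp2c67, Cyp2c68, Cyp2c40 and Cyp2c69 has pairs of 96.5 to 98.1%, and that of Cyp2c37, Cyp2c54 and Cyp2c50 has 95.1 to 96.1%.

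The counting of reads shared by such copies, not given in the sources used here, leaves single members of these groups uncertain. As a guide to how much sequence is shared, 44.1% of the 100-base windows of the Cyp2c40 transcript also occurred in a transcript of another Cyp2c gene. The share was 36.3% for Cyp2c69, 9.4% for Cyp2c50, 7.59% for Cyp2c54 and 4.7% for Cyp2c37. It was 0 for Cyp2c29, Cyp2c38, Cyp2c39, Cyp2c55 and Cyp2c70. Shorter windows were shared more. With 50-base windows the share was 11.4% for Cyp2c39, 7.45% for Cyp2c38, 2.08% for Cyp2c29, 0.514% for Cyp2c55 and 0 for Cyp2c70. It was 72.1% for Cyp2c40, 54.8% for Cyp2c69, 30.7% for Cyp2c50, 30.1% for Cyp2c37 and 25.7% for Cyp2c54.

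RefSeq promoter windows of GRCm38.p6, from 250 bases before to 50 bases after an annotated start, were matched for 9 of the 10 members by symbol (Cyp2c54 had none). The windows below are shown because they belong to close copies whose expression differed between the groups in size or direction (Cyp2c40, Cyp2c69 and Cyp2c67, then Cyp2c37 and Cyp2c50) and to the most abundant member (Cyp2c70). Capitals mark CAAAGTC on either strand, the start of the motif CAAAGTCCA that HNF4A binds.
Cyp2c40, chr19:39812765-39813064, minus strand: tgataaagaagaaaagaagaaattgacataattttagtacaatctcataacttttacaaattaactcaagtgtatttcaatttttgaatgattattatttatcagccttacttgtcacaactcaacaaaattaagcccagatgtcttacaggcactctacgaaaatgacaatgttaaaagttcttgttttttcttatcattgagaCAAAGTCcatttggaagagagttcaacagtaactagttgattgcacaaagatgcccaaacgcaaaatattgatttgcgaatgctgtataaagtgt
Cyp2c69, chr19:39886720-39887019, minus strand: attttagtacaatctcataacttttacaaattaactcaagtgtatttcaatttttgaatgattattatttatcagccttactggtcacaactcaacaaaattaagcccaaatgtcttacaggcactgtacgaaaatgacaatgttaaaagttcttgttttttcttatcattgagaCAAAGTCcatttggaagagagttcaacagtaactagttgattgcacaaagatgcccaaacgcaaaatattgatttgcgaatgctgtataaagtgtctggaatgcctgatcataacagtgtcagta
Cyp2c67, chr19:39648993-39649292, minus strand: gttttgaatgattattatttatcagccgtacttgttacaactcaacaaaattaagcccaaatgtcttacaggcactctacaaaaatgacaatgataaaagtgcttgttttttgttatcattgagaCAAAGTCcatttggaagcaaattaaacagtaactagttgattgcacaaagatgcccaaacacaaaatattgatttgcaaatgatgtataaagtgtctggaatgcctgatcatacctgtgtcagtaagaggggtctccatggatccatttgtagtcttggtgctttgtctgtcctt
Cyp2c37, chr19:39992174-39992473, plus strand: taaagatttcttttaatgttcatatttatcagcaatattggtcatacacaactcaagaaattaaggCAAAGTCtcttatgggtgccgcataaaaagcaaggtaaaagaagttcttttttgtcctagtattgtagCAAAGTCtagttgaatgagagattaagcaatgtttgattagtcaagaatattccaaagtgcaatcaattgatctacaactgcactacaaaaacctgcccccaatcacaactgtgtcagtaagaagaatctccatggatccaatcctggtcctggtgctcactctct
Cyp2c50, chr19:40089429-40089728, plus strand: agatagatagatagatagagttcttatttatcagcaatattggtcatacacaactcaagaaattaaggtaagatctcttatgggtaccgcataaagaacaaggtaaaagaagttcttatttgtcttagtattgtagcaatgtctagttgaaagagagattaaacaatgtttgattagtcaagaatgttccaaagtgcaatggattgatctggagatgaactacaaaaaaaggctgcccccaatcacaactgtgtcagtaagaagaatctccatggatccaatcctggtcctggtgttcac
Cyp2c70, chr19:40187237-40187536, minus strand: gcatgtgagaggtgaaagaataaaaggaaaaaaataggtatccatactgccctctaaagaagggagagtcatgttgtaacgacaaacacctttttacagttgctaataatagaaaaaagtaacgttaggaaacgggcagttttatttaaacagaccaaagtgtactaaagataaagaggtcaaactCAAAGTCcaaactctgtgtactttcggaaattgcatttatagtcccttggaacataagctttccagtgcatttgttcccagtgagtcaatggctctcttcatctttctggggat

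The windows of Cyp2c40 and Cyp2c69 had 98.9% identical bases over 270 aligned bases, those of Cyp2c67 and Cyp2c69 93.2% over 249, and those of Cyp2c37 and Cyp2c50 92.1% over 278. The letters CAAAGTC, searched on both strands, were present for 6 of the 9 members with a window (Cyp2c29, Cyp2c37, Cyp2c39, Cyp2c40, Cyp2c69 and Cyp2c70), against 4.44% of all 32851 windows of this length. The longer CAAAGTCCA, which contains it, was in the windows of Cyp2c40, Cyp2c69 and Cyp2c70, and of Cyp2c67, Cyp2c68 and Cyp2c65 outside the 10, against 0.475% of all windows. It began 45 bases before the annotated start in Cyp2c40, 75 in Cyp2c69, 125 in Cyp2c67 and 64 in Cyp2c70. Counted from the same starts, the letters TATAAA began at 40 in Cyp2c40, 10 in Cyp2c69 and -40 in Cyp2c67. The annotated starts of these copies are thus offset from each other, and the distances of CAAAGTCCA shift with them. Genes that were higher with baicalein (Cyp2c40, Cyp2c69) and genes that were lower (Cyp2c70, Cyp2c67) thus carried the same letters. The STAT5 motif TTCNNNGAA was in none of the 14 Cyp2c windows, against 8.3% of all windows. So few windows, many of them close copies, cannot show a lack of it. Copies share these letters by descent, so the windows are not independent of each other, and the short motif was picked after the windows had been read.

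The deposited counts summed to 13976440 to 18731616 per liver. The 11 listed hepatocyte markers summed to 119211 and 114617 CPM (counts scaled to the normalised library size) with saline. With baicalein they summed to 155092 and 131606 CPM. Of the 11, 2 were called higher and 2 lower, at a median log2 fold change of -0.08. The largest part of these sums was Alb, at 55863 and 53157 CPM with saline and 87778 and 74261 CPM with baicalein. Alb rose from 54510 ± 1914 to 81019 ± 9558 CPM (SD, n = 2 each, log2 fold change 0.57). It was not called with limma-voom, without saline 1 or without saline 2. Nor was it called with the replicate numbers as a block, as labelled or crossed. Trf did not pass (0.04). Several other features moved with the groups or with single livers. The 4 Y-linked genes Ddx3y, Eif2s3y, Kdm5d and Uty had 820 and 836 reads in the saline livers against 2 and 1 in the baicalein livers, 11 of 12 listed male-biased liver genes were lower and 14 of 14 listed female-biased genes higher with baicalein. In every value below, treatment and the Y-linked split cannot be told apart. The 15 skeletal muscle markers summed to 117439 reads in saline 1 and 46728 in baicalein 2, against 20 in saline 2 and 17 in baicalein 1. In baicalein 2, by genes picked after their values were seen, the duct marker Krt19 had 1448 reads (17 to 39 elsewhere) and, among 9 gut epithelium markers, Lgals4 had 591 (54 to 131 elsewhere), Vil1 143 (4 to 12) and Krt20 12 (0 to 1), while Cdx2, Sis and Alpi were at 0 in every liver. The pancreas marker Ctrb1 had 749 reads in baicalein 2 and 0 elsewhere. Of 9 duct markers 4 fell and none rose, but without baicalein 1 the fit called 4 as higher and 2 as lower. Macrophage markers rose in 8 of 11 cases (5 to 8 with a liver left out), from a summed 494 and 562 CPM with saline to 862 and 987 CPM with baicalein. For the sinusoidal endothelium 6 of 8 markers rose (1 to 5 with a liver left out), from 327 and 377 to 516 and 518 CPM, and for stellate cells 4 of 9. Of 5 lymphocyte markers tested no call was made, at a median log2 fold change of 1.02. The 6 in the table summed to 5.76 and 5.83 CPM with saline and 11.7 and 10.2 CPM with baicalein. These rest on few reads (98 and 80 against 170 and 205). The part of all these features in the Cyp2c values was not tested. In bulk tissue fewer hepatocytes and less RNA per hepatocyte cannot be told apart.

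Baicalein livers held more Cyp2c mRNA than saline livers, and its make-up differed. Of the 10 members, all tested, 7 were higher (Cyp2c29, Cyp2c37, Cyp2c38, Cyp2c39, Cyp2c40, Cyp2c54 and Cyp2c69), 2 were lower (Cyp2c55 and Cyp2c70) and Cyp2c50 did not pass, by edgeR's quasi-likelihood test at an adjusted p (Benjamini-Hochberg over 12657 genes) below 0.05. Over all genes tested 15.5% were called, 7.65% as higher and 7.9% as lower (968 and 1000 genes). With plain library totals in place of TMM scaling these were 1044 and 690 genes, or 13.7% called, and 7 and 2 members. The median log2 fold change was 0.95 over the members and 0.01 over all genes, and the median size of the change, sign aside, was 1.2 against 0.26. Changes of at least 2-fold were called for 6 members, against 4.94% of all genes. CPM of the 2 groups did not overlap for 9 of the 10 members, against 59.2% of all genes (29.7% higher, 29.5% lower). Each fit with 1 liver left out called fewer: 5 members higher and 1 lower without saline 1 (8.32% of all genes called), 6 and 1 without saline 2 (7.89%), 5 and 2 without baicalein 1 (9.92%), and 4 and 2 without baicalein 2 (8.82%). These fits rest on 3 livers and so on fewer degrees of freedom.

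**Figure D2:**
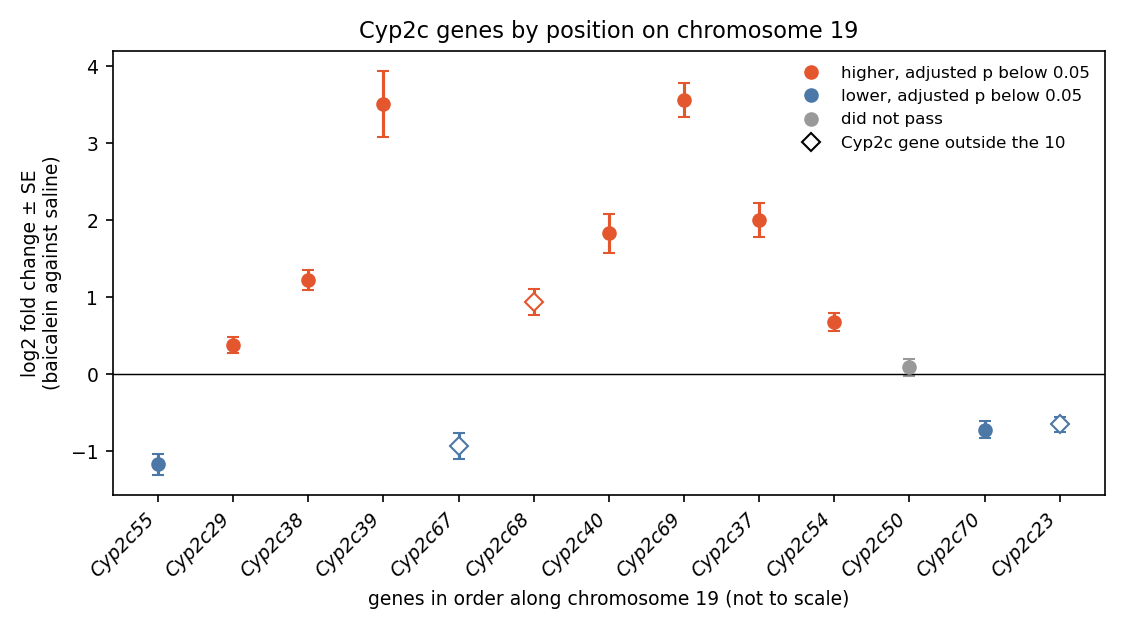
Log2 fold change of baicalein against saline (points, bars are SE) for the 13 tested Cyp2c genes in order along chromosome 19, with filled circles for the 10 members and open diamonds for the others. Below 0 are Cyp2c55 (-1.17) and Cyp2c70 (-0.72), the ends of the cluster, Cyp2c67 (-0.93) in its middle, and Cyp2c23 (-0.65), which lies apart at the right. Cyp2c39 (3.51) and Cyp2c69 (3.56) stand highest.

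In FPKM, reads scaled to the gene's length and the library's total, which allows genes of different length to be set side by side, the 10 members summed to 1926 and 2095 with saline and 2806 and 2794 with baicalein. Means were 2011 ± 120 and 2800 ± 8.45 FPKM (SD, n = 2 each), a ratio of 1.39, and the groups did not overlap. The ratio was 1.28 in summed CPM. Over all Cyp2c genes of the deposited table, summed FPKM went from 2535 ± 179 to 3315 ± 21.4, a ratio of 1.31. The order of the members by FPKM was the same in both livers of a group and differed between the groups. With saline it ran Cyp2c70, Cyp2c29, Cyp2c50, Cyp2c54, Cyp2c37, Cyp2c40, Cyp2c69, Cyp2c55, Cyp2c38 and Cyp2c39. With baicalein it ran Cyp2c29, Cyp2c70, Cyp2c37, Cyp2c50, Cyp2c69, Cyp2c54, Cyp2c40, Cyp2c38, Cyp2c55 and Cyp2c39. No neighbours in either order had overlapping values within the group. With 2 livers a group, that spread is itself poorly known.

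**Figure D3:**
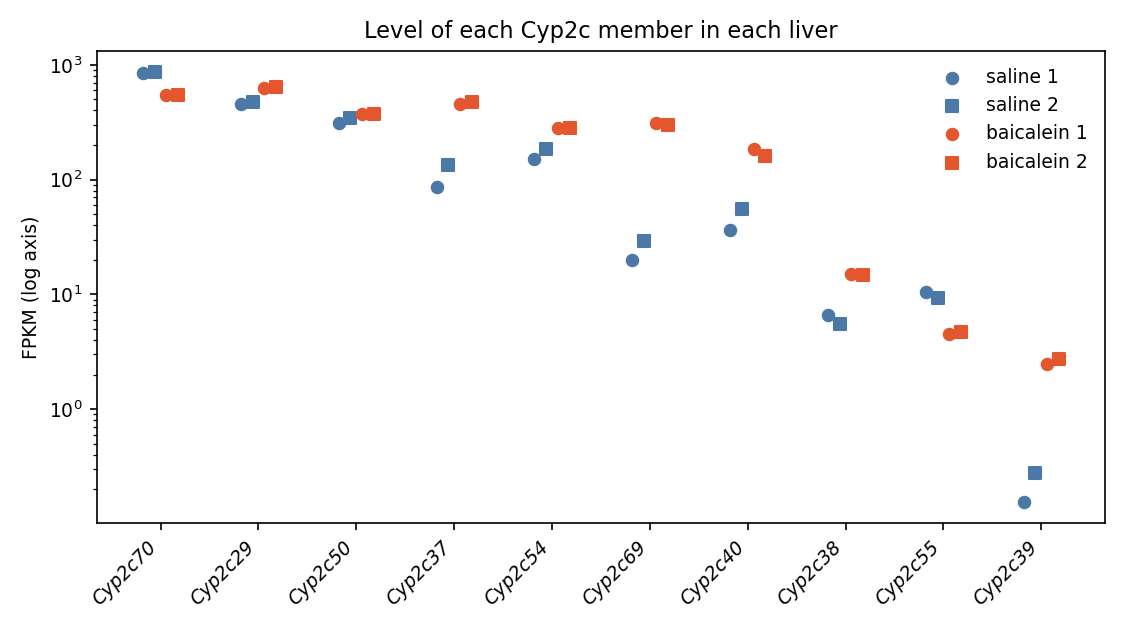
FPKM of each member (log axis) in each of the 4 livers, blue for saline and red for baicalein, circles for liver 1 and squares for liver 2. Cyp2c70 is highest with saline at 844 and 862 FPKM and Cyp2c39 lowest at 0.156 and 0.276.

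Cyp2c70 gave 43.8% and 41.1% of the members' FPKM in the saline livers and 19.5% and 19.4% in the baicalein livers. Cyp2c69 went the other way, from 1.03% and 1.4% to 11.1% and 10.7%, and Cyp2c37 from 4.51% and 6.39% to 16.4% and 17% (16.7 ± 0.453%, SD, n = 2). Cyp2c29 had a similar share in both groups, 23.8% and 22.4% with saline and 22.5% and 23.1% with baicalein. The larger total thus came with a smaller share of Cyp2c70 and larger shares of Cyp2c37, Cyp2c69 and Cyp2c40. These shares rest on values within each liver and do not depend on how libraries were scaled.

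**Figure D4:**
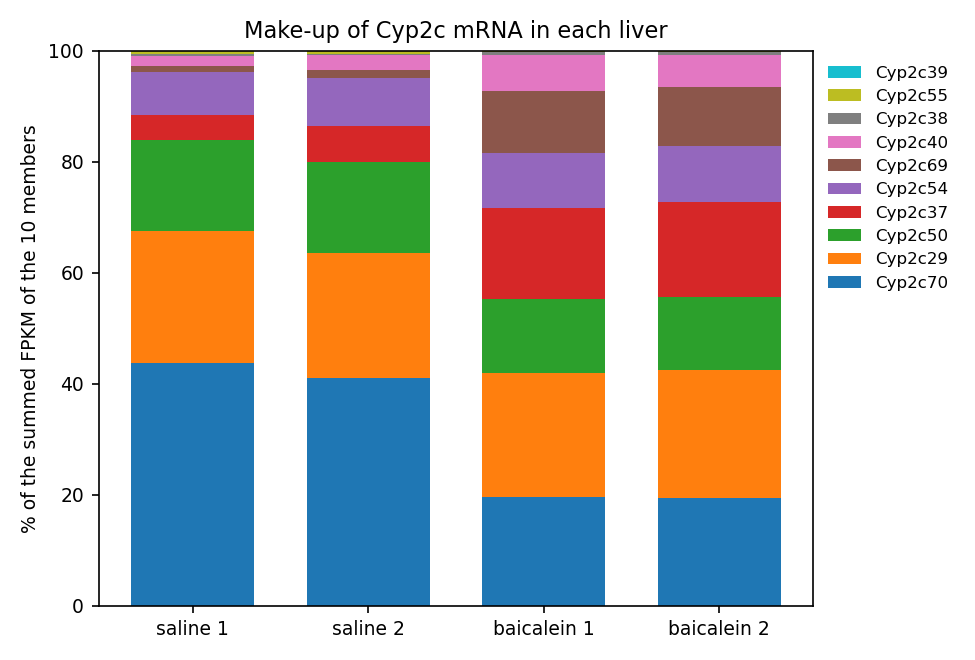
Share of each member in the summed FPKM of the 10 members, in percent, 1 bar per liver and colours for genes. Cyp2c70 falls from 43.8% and 41.1% of the bar in the saline livers to 19.5% and 19.4% in the baicalein livers.

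Cyp2c70, the muricholic acid enzyme, was the most abundant member over the 4 livers. Cyp2c70 (ENSMUSG00000060613, chromosome 19, 40141797 to 40175777, minus strand) stood at 844 and 862 FPKM with saline and at 547 and 542 FPKM with baicalein. Both baicalein livers were below both saline livers, and the livers of a group differed little. In CPM it went from 1739 ± 2.1 to 1052 ± 69 (SD, n = 2 each), a 1.65-fold fall (log2 fold change -0.72, standard error 0.11, adjusted p = 0.00242). The call was lost without saline 1 (adjusted p = 0.0677) or saline 2 (0.0846). Among 9377 other tested genes with a mean of at least 5 CPM, those with a pattern near to that of Cyp2c70 (root mean square difference of centred log2 CPM over the 4 livers) included Grb14 at 0.0125, Wdr6 at 0.0131, Prpsap1 at 0.0177 and Arl6ip1 at 0.0186.

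The other genes of bile acid synthesis moved in both directions. Of 13 tested, 2 rose and 6 fell. The list had a median log2 fold change of -0.32, against 0.01 for all genes. Cyp7a1, the rate-limiting enzyme of the classical pathway, rose from 9.43 ± 0.281 to 52 ± 9.58 CPM (SD, n = 2 each, log2 fold change 2.46, standard error 0.15, adjusted p = 1.86e-05). Cyp8b1, the sterol hydroxylase that directs synthesis to cholic acid, fell from 461 ± 19 to 98.6 ± 21.3 CPM (log2 fold change -2.23, standard error 0.16, adjusted p = 2.17e-04). Cyp7b1, an oxysterol hydroxylase that is male-biased in mouse liver, fell by 3.7 on the log2 scale (standard error 0.13), and Scp2, a peroxisomal thiolase and lipid carrier, by 1.39 (standard error 0.11). These 4 were called with any 1 liver left out. With a liver left out 1 to 2 genes of the list rose and 4 to 6 fell. The other gene that rose, Akr1d1, a steroid reductase, was not called without baicalein 1 or baicalein 2 (0.122 at most).

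Cyp2c29, an epoxygenase of arachidonic acid that phenobarbital induces through CAR, was the second most abundant member. Cyp2c29 (ENSMUSG00000003053, chromosome 19, 39257849 to 39319157, plus strand) was at 458 and 470 FPKM with saline and 631 and 646 FPKM with baicalein. Both baicalein livers were higher. CPM rose 1.3-fold from 1461 ± 7.94 to 1905 ± 80.7 (SD, n = 2 each, log2 fold change 0.38, standard error 0.10, adjusted p = 0.0377). It was the smallest change among the members called and did not pass without saline 1 (adjusted p = 0.4), without saline 2 (0.431) or with limma-voom (0.0602). Within each liver, the FPKM ratio of Cyp2c29 to Cyp2c70 was 0.542 and 0.545 with saline and 1.15 and 1.19 with baicalein, so the 2 most abundant members changed places.

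Cyp2c38 and Cyp2c39, the copies closest to Cyp2c29, were expressed at far lower levels. Cyp2c38 (ENSMUSG00000032808, chromosome 19, 39378000 to 39451519, minus strand), an arachidonic acid epoxygenase, had 333 and 220 reads with saline and 635 and 794 with baicalein, or 6.57, 5.49, 15 and 14.8 FPKM in saline 1, saline 2, baicalein 1 and baicalein 2. It rose 2.33-fold (17.8 ± 2.5 to 41.6 ± 2.87 CPM, SD, n = 2 each, log2 fold change 1.22, standard error 0.13, adjusted p = 4.63e-04). Cyp2c39 (ENSMUSG00000025003, chromosome 19, 39499306 to 39556973, plus strand), which hydroxylates retinoic acid, had 5 and 7 reads with saline against 66 and 93 with baicalein. The groups were far apart, yet the saline level rests on 12 reads in all. Its log2 fold change was 3.51 (standard error 0.43, adjusted p = 0.00101), and the ratio of the summed reads, 11.7, had an exact 95% counting interval of 6.54 to 23.2, which covers counting error only. Both calls held with any 1 liver left out.

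Since Cyp2c39 acts on retinoic acid, the genes that make and clear it were examined from a list. The median log2 fold change was 0.68 against 0.01 for all genes. Of 11 tested, 3 rose and 2 fell (1 without saline 1 or saline 2, where Aldh1a1 did not pass). The retinoic acid hydroxylases Cyp26a1 and Cyp26b1 rose, from 16.3 ± 0.014 to 135 ± 11.6 CPM (log2 fold change 3.06, standard error 0.11, adjusted p = 6.29e-07) and from 1.67 ± 0.299 to 103 ± 17.1 CPM (log2 fold change 5.93, standard error 0.19, adjusted p = 8.44e-06; SD, n = 2 each). Rdh16, a retinol dehydrogenase, rose by 0.83 on the log2 scale (standard error 0.10), and Aldh1a7, an aldehyde dehydrogenase, fell by 0.78 (standard error 0.10). Cyp26a1 was also among the 5 genes whose pattern over the livers was nearest to that of Cyp2c69, given below.

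Cyp2c40 and Cyp2c69, described as female-biased in mouse liver, rose together. Cyp2c69 (ENSMUSG00000092008, chromosome 19, 39831258 to 39875243, minus strand) had 19.8 and 29.4 FPKM with saline and 311 and 298 FPKM with baicalein. It showed the largest change of the members. From 43.2 ± 11.3 to 508 ± 44.9 CPM (SD, n = 2 each) it rose 11.8-fold (log2 fold change 3.56, standard error 0.22, adjusted p = 8.53e-04), and 47 of the 12657 genes tested (0.371%) had a log2 fold change as high or higher, itself included. Without baicalein 2 its adjusted p was 0.0524. Cyp2c40 (ENSMUSG00000025004, chromosome 19, 39755515 to 39801258, minus strand), which hydroxylates arachidonic acid, had 36.6 and 55.3 FPKM with saline and 183 and 159 FPKM with baicalein. It rose 3.55-fold, from 96.1 ± 26.5 to 341 ± 52.7 CPM (SD, n = 2 each, log2 fold change 1.83, standard error 0.25, adjusted p = 0.0195), and was not called without baicalein 1 (adjusted p = 0.14) or baicalein 2 (0.145). With the reads of these 2 copies added up, the log2 ratio of the group means was 2.61. The genes nearest in pattern to Cyp2c69 were Acnat2 (root mean square difference 0.153), Nipal1 (0.227), Atp6v0d2 (0.247), Cyp2a22 (0.284) and Cyp26a1 (0.334).

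The close copies Cyp2c67 and Cyp2c68, which are not among the 10, moved in opposite directions. Cyp2c67 had 76 and 108 FPKM with saline and 51.2 and 50.5 with baicalein and fell (log2 fold change -0.93, standard error 0.17, adjusted p = 0.0194). Cyp2c68 had 108 and 146 FPKM with saline and 271 and 243 with baicalein and rose (log2 fold change 0.94, standard error 0.17, adjusted p = 0.0152). Both calls were lost without baicalein 1 (adjusted p = 0.152 and 0.136) or baicalein 2 (0.212 and 0.093), and that of Cyp2c68 also without saline 1 (0.0546). Within a liver, the ratio of Cyp2c69 to Cyp2c67 in FPKM was 0.261 and 0.273 with saline and 6.08 and 5.91 with baicalein. Within a group the ratio barely varied, and between the groups the mean differed 22.5-fold. The ratio of Cyp2c69 to Cyp2c40 was 0.542 and 0.532 with saline and 1.7 and 1.87 with baicalein, so the 2 members that rose together did not rise equally. An exact permutation test of 2 livers against 2 cannot pass 0.05, so these ratios are given without a test. Summed over all 4 copies, the saline livers had 7528 and 8411 reads and the baicalein livers 21556 and 25120.

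**Figure D5:**
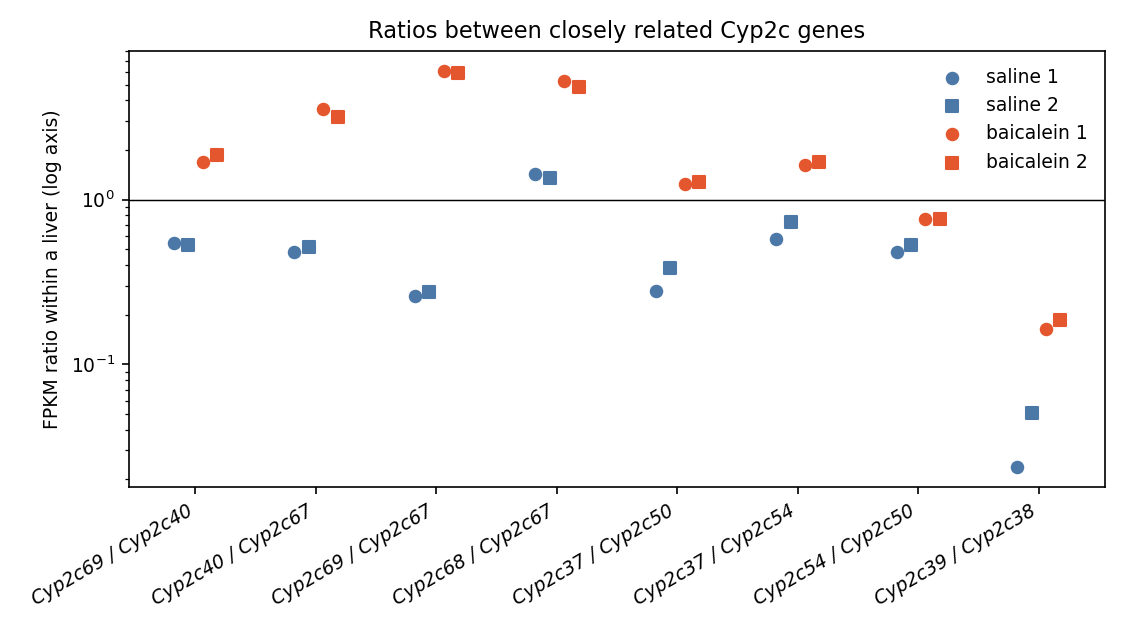
Ratio of FPKM between pairs of Cyp2c genes within each of the 4 livers (log axis, line at 1), blue for saline and red for baicalein, circles for liver 1 and squares for liver 2. Every pair shown is higher with baicalein, and Cyp2c69 to Cyp2c67 moves from 0.261 and 0.273 to 6.08 and 5.91.

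Cyp2c37, Cyp2c50 and Cyp2c54 oxidize arachidonic and linoleic acid and lie next to each other at the end of the cluster that holds Cyp2c70. Cyp2c37 (ENSMUSG00000042248, chromosome 19, 39980868 to 40000687, plus strand) had 86.8 and 134 FPKM with saline and 459 and 475 FPKM with baicalein. The saline livers differed from each other more than the baicalein livers did, and the groups lay well apart. It rose 4.01-fold, from 207 ± 59.8 to 830 ± 28.6 CPM (SD, n = 2 each, log2 fold change 2.0, standard error 0.22, adjusted p = 0.00679), but was not called without baicalein 1 (0.181) or baicalein 2 (0.223). Cyp2c54 (ENSMUSG00000067225, chromosome 19, 40026384 to 40062271, minus strand) had 150 and 183 FPKM with saline and 282 and 281 FPKM with baicalein. It rose 1.6-fold (log2 fold change 0.68, standard error 0.12, adjusted p = 0.0056), and was not called without saline 1 (0.117).

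Cyp2c50 (ENSMUSG00000054827, chromosome 19, 40078132 to 40102394, plus strand), the most abundant of these 3 with saline, was at 314 and 347 FPKM with saline and 371 and 370 FPKM with baicalein. In CPM, 951, 1031, 1098 and 1008 in saline 1, saline 2, baicalein 1 and baicalein 2, the groups overlapped. The log2 fold change was 0.09 (standard error 0.11, adjusted p = 0.647) and lay between 0.01 and 0.17 over the alternative fits. Within a liver the ratio of Cyp2c37 to Cyp2c50 in FPKM went from 0.277 and 0.386 with saline to 1.24 and 1.28 with baicalein. Cyp2c37 was thus the less abundant of the pair in both saline livers and the more abundant in both baicalein livers. With the reads of the 3 copies added up the log2 ratio was 0.66.

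Cyp2c55, which hydroxylates arachidonic acid and is also expressed in the colon, was the second member to fall. Cyp2c55 (ENSMUSG00000025002, chromosome 19, 38995463 to 39031137, plus strand) had 366 and 261 reads with saline and 134 and 177 with baicalein, or 10.4, 9.36, 4.55 and 4.74 FPKM in saline 1, saline 2, baicalein 1 and baicalein 2. Both baicalein livers were lower. It fell 2.25-fold, from 20.3 ± 1.75 to 9.02 ± 0.271 CPM (SD, n = 2 each, log2 fold change -1.17, standard error 0.14, adjusted p = 8.23e-04), and the call held with any 1 liver left out. Its neighbour Cyp2c65 had 82 reads in baicalein 2, the liver with the Krt19 and Vil1 reads, and 0 in the other 3 livers, where 3 reads would be 0.17 to 0.215 CPM. Cyp2c66 had no read in any liver. Neither passed the filter on low counts of the main fit, so neither was tested there.

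Members were also compared between the livers almost without skeletal muscle reads. In that pair, baicalein 1 against saline 2, the log2 ratio of CPM ran from 3.4 for Cyp2c69 and 3.15 for Cyp2c39 to 0.09 for Cyp2c50, -0.66 for Cyp2c70 and -1.05 for Cyp2c55. Members whose CPM did not overlap between the groups must have the sign of the fit in any such pair. The sign is therefore no check on the muscle reads. In the pair with muscle reads, which differ in amount (2331 CPM in baicalein 2 and 6904 CPM in saline 1), the values were 3.76, 3.98, 0.08, -0.79 and -1.28 for the same genes. With 1 liver on each side these are values without a test. Within the cluster the changes were not ordered as a block, since the end genes Cyp2c55 and Cyp2c70 fell and so did Cyp2c67 in its middle. The genes of the table that flank the cluster included Noc3l, Tbc1d12 and Hells before it, none called (log2 fold changes 0.04, 0.14 and 0.07), and Pdlim1 and Aldh18a1 after it. Pdlim1, a cytoskeletal adaptor, rose (log2 fold change 0.51, standard error 0.10, adjusted p = 0.00898), and Aldh18a1 did not pass (log2 fold change 0.07, adjusted p = 0.934). Cyp2c23, an epoxygenase that lies apart from the cluster on the same chromosome and is not among the 10, fell (300 and 312 to 202 and 210 FPKM, log2 fold change -0.65, standard error 0.10, adjusted p = 0.00294), and was not called without saline 1 (0.0529) or saline 2 (0.0902).

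Of 10 genes for electron transfer to P450 and for heme, 2 rose and none fell, and the median log2 fold change was -0.15 against 0.01 for all genes tested. Por, the reductase that feeds every microsomal P450, rose from 183 ± 5.22 to 419 ± 42.4 CPM (SD, n = 2 each, log2 fold change 1.20, standard error 0.11, adjusted p = 2.12e-04). Alas1, the rate-limiting enzyme of heme synthesis in liver, rose from 161 ± 43.9 to 418 ± 14.9 CPM (log2 fold change 1.37, standard error 0.20, adjusted p = 0.0136), and was not called without baicalein 1 or baicalein 2 (0.229 at most). Pgrmc1, a heme-binding membrane protein, and Cpox, an enzyme of heme synthesis, did not pass (log2 fold changes -0.31 and -0.3, adjusted p = 0.0736 and 0.0753). The cytochrome b5 genes Cyb5a and Cyb5b had log2 fold changes of 0.16 and -0.2 and did not pass (adjusted p = 0.37 and 0.214).

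Of 13 transcription factors that act on Cyp2c genes, 3 rose, 2 fell and 8 did not pass, with a median log2 fold change of 0.03. Nr1i3, which encodes CAR, rose from 12.1 ± 1.84 to 25.4 ± 3.75 CPM (SD, n = 2 each, log2 fold change 1.07, standard error 0.16, adjusted p = 0.00264) and was called with any 1 liver left out. Foxa3, a pioneer factor, fell by 0.72 on the log2 scale (standard error 0.13, adjusted p = 0.00662) and was not called without saline 1 (0.0648). Cebpb, a factor of the acute phase, fell by 0.83 (standard error 0.16, adjusted p = 0.0139), and was not called without saline 1 or saline 2 (up to 0.149). Onecut1, encoding HNF6, rose by 1.38 (standard error 0.33, adjusted p = 0.0223) at 2.17 ± 0.744 to 5.64 ± 0.000698 CPM and was not called without saline 1, baicalein 1 or baicalein 2 (up to 0.126). The third gene that rose, Nr3c1, the glucocorticoid receptor (0.44, standard error 0.12, adjusted p = 0.0363), was not called without saline 1, baicalein 1 or baicalein 2 (up to 0.229), nor with library totals or limma-voom. Hnf4a, whose motif is marked in the promoters above, was at 791 ± 44.2 and 807 ± 59.4 CPM (log2 fold change 0.03, standard error 0.11, adjusted p = 0.901), and Nr1i2, which encodes the xenobiotic receptor PXR, at 84.9 ± 2.41 and 82.1 ± 11.8 CPM (-0.05, standard error 0.12, adjusted p = 0.829).

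Growth hormone signalling through STAT5 sets much of the sex bias of liver P450 genes, and of 11 genes listed for it 2 rose and 4 fell, at a median of -0.12. Cux2, a repressor found in female mouse liver, rose from 0.695 ± 0.152 to 7.8 ± 1.22 CPM (SD, n = 2 each, log2 fold change 3.48, standard error 0.33, adjusted p = 2.37e-04). Bcl6, a repressor that is higher in male liver, fell from 52.3 ± 0.257 to 34.4 ± 2.58 CPM (log2 fold change -0.60, standard error 0.10, adjusted p = 0.00352). Both were called with any 1 liver left out. The STAT5 targets Socs2 and Cish moved apart, with log2 fold changes of 0.90 (standard error 0.17, adjusted p = 0.00726) and -1.02 (standard error 0.19, adjusted p = 0.00812). Socs2 was not called without baicalein 1 (0.0838), nor Cish without saline 2, baicalein 1 or baicalein 2 (up to 0.0946). Stat5a and Stat5b, which encode the STAT5 proteins, fell by 0.58 and 0.35 on the log2 scale (adjusted p = 0.0154 and 0.0483). Of the fits with 1 liver left out, none called Stat5b, and Stat5a was not called without saline 1, baicalein 1 or baicalein 2 (up to 0.0954).

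The epoxides that Cyp2c enzymes make from fatty acids are hydrolysed by epoxide hydrolases, whose main liver genes fell. Of 11 tested genes of fatty acid oxidation and epoxide hydrolysis 2 rose and 4 fell, and the median log2 fold change was 0.07. Ephx2, the soluble hydrolase, was at 939 and 926 CPM in the saline livers and 467 and 448 in the baicalein livers (log2 fold change -1.03, standard error 0.10, adjusted p = 2.79e-04). Ephx1, the microsomal hydrolase, was at 732 and 652 CPM with saline and 270 and 259 with baicalein (log2 fold change -1.39, standard error 0.11, adjusted p = 7.72e-05). In both genes the baicalein livers were far below the saline livers. Pla2g6, a phospholipase that frees fatty acids, also fell (log2 fold change -0.96, standard error 0.12), and Ptgs1, encoding cyclooxygenase, rose (0.90, standard error 0.12). The other gene that rose, Cyp4a14, went from 145 ± 24.9 to 337 ± 68.6 CPM (SD, n = 2 each, log2 fold change 1.22, standard error 0.19, adjusted p = 0.0144). It was not called with library totals. Cyp2j6, a P450 of another family of epoxygenases, fell by 0.57 on the log2 scale (standard error 0.09), and Cyp2j5 did not pass (-0.14, standard error 0.10, adjusted p = 0.43). The calls of Ephx1, Ephx2, Pla2g6, Ptgs1 and Cyp2j6 held with any 1 liver left out.

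Cyp2c genes differ along the liver lobule, so markers of its zones were read beside them. Of 11 tested pericentral markers 4 rose and 1 fell (3 to 6 and 0 to 1 with a liver left out), and of 11 periportal markers 7 rose and 2 fell (3 to 7 and 1 to 2). Median log2 fold changes were 0.32 and 0.48. The pericentral genes Oat, an ornithine aminotransferase, Slc1a2, a glutamate transporter, Lect2 and Rgn had log2 fold changes of 1.18, 1.13, 1.0 and 0.65, and Rgn was not called without saline 1 or saline 2. The periportal genes Sds, a serine dehydratase, Ctsc and Aldh1b1 rose by 1.14, 1.0 and 0.73 on the log2 scale. Hal, Ass1 and Gls2 were not called without saline 1, saline 2 or baicalein 1, nor Cps1 without saline 1 or saline 2. Glul, which marks the hepatocytes around the central vein, did not pass (log2 fold change 0.34, standard error 0.11, adjusted p = 0.0709), nor did the pericentral P450 genes Cyp2e1 (0.32, standard error 0.12, adjusted p = 0.106) and Cyp1a2 (0.19, standard error 0.11, adjusted p = 0.265). The periportal P450 gene Cyp2f2 fell (-1.10, standard error 0.11, adjusted p = 2.82e-04). The other periportal marker that fell was Etnppl (-0.48, standard error 0.13, adjusted p = 0.0345). Etnppl was not called with library totals, limma-voom or the replicate number as a block. It was also not called without saline 2, baicalein 1 or baicalein 2. The pericentral marker that fell was Cyp27a1 (-0.56, standard error 0.11, adjusted p = 0.0101), which was not called without saline 1 or saline 2. The part of zonation in the Cyp2c values was not tested.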

How the data were processed

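For each of the 4 livers the authors deposited whole-number read counts and FPKM by gene, in a single table. Library preparation used a SMARTer mRNA-seq kit, per the labels' protocols. The submitters' processing notes name mm10. Aligner and counter: not given in the sources used here. For all 10 members the deposited FPKM matched the count scaled by gene length and library total (tolerance 1%). Columns were tied to livers by title, and groups came from the treatment labels.

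Of 21959 gene IDs, 12657 passed filterByExpr. Counts were TMM-scaled, and edgeR 4.0.16 (R 4.3.3) fitted a robust quasi-likelihood model without covariates, two-sided, with standard errors from the log2 fold change and F. Alternatives were DESeq2 1.42.0, limma 3.58.1 (voom), other scalings and filters, a replicate block and leaving out each liver. The fit was tested on simulated data. Livers of a group differed beyond sampling noise (chi-square per degree of freedom 24.8 and 19.7). Close copies were grouped by GENCODE M21 coding sequence, as no protein sequences were used here. Named genes were the 10 members, the 4 of smallest p per pathway list 5 genes of nearest pattern to each of 2 members and 3 neighbours on each side of the cluster; 2 of these genes are not reported here. Hnf4a, Nr1i2, Nr3c1, Cyb5a, Cyb5b, Cyp2j5, Cyp2j6, Cyp4a14, Akr1d1, Aldh1a1, Stat5a, Stat5b and the zone markers beyond the first 4 were added after their values were seen. The members and lists were chosen with earlier results of these data known.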

Additional observations from a re-analysis of the deposited data

How the results depend on the processing

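No member changed direction under any alternative run. Cyp2c38, Cyp2c39 and Cyp2c55 kept their calls in every alternative fit, and Cyp2c50 was called in none. Members called higher numbered 4 to 6 and members called lower 1 to 2 with a liver left out. Over all genes those fits called 521 to 665 as higher and 535 to 663 as lower, limma-voom called 632 as higher (10.6% called in all), and plain library totals put the median log2 fold change of all genes at 0.09 against 0.01. The ratio of the members' summed level was 1.28 in CPM. The replicate numbers of the labels are not stated to pair the livers, and same-numbered livers deviated in opposite ways (correlation of deviations from the group means -0.742). With the replicate number as a block 531 genes were higher and 601 lower (8.94% called), and 5 members were higher and 2 lower, Cyp2c29 (adjusted p = 0.112) and Cyp2c40 (0.0967) no longer passing, nor Cyp2c67 (0.0729) and Cyp2c68 (0.0896) outside the 10. A block with crossed numbers, added after seeing the data, called 1809 genes as higher and 1689 as lower (27.6%), and 7 and 2 members. With 2 livers a group the spread is shared between genes, and 5 and 7 reads of Cyp2c39 with saline limit its fold.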
